A study of Mus musculus with 899 samples.

Results

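A group of 3 mature miRNA of leukocytes was followed in mouse plasma after whole thorax lung irradiation (WTLI): mmu-miR-155-5p, mmu-miR-142a-3p and mmu-miR-142a-5p. They were chosen by name from the 1915 mature miRNA listed in the count table, and all 3 were among the 483 with enough reads to be tested. Plasma was collected from C3H mice (C3Hf/Sed/Kam) and C57Bl/6 mice that received 1 dose of X-rays to the thorax, set to be lethal to most mice of the strain within months, or a sham irradiation. All mice were young adults of both sexes at exposure, were bled under anesthesia and had a sample taken before irradiation, except 4 irradiated C57Bl/6 mice that enter from month 1 on. The C3H samples came from 64 irradiated and 32 sham mice, the C57Bl/6 samples from 68 irradiated and 32 sham mice, each animal carrying its own number in the sample titles.

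Within a strain some mice were bled at day 2 and others at day 5, giving 32 irradiated and 16 sham samples at each of these times, so that the effects at day 2 and day 5 rest on different animals. C3H mice were then sampled monthly to month 4 and C57Bl/6 mice to month 6. By the last sampling 17 irradiated C3H and 8 irradiated C57Bl/6 animals were left, with 16 sham animals in each strain, so the later groups hold only animals that were still alive. The titles further divide each strain into 2 sets of mice, coded G2 and G4 in C3H and G1 and G3 in C57Bl/6. The labels do not explain these codes, and only G1 and G2 were followed past month 1. At month 2 these sets held 28 irradiated C3H and 36 irradiated C57Bl/6 samples, with 16 sham samples in each strain. Part of the drop in numbers therefore reflects which sets were sampled.

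The 899 libraries held 206490 to 11814515 miRNA reads, with a median of 1475030, and 23 of them held fewer than 500000. Reads of mmu-miR-155-5p ranged from 5 to 2785 per library with a median of 121, those of mmu-miR-142a-3p from 29 to 16440 with a median of 732, and those of mmu-miR-142a-5p from 106 to 47587 with a median of 2919. No library had 0 reads of any of the 3. One small group of libraries stood apart from the rest of its strain and time point. These were 3 of the 4 sham females of set G3 in C57Bl/6 at day 5, with more reads of mmu-miR-142a-3p than of mmu-miR-142a-5p. The irradiation effects of the 3 members in C57Bl/6 mice at day 5 are given below with and without the 12 females of that set at that time, and so are those of the other miRNA named there. Effects within set G3, levels, rank orders and the counts and medians over lists of miRNA include these females.

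MicroRNA are short RNA that guide Argonaute proteins to messenger RNA by base pairing of their seed, bases 2 to 8 of the mature strand, and a hairpin precursor can give a mature strand from either arm. The miR-155 hairpin lies in the noncoding transcript Mir155hg (also known as BIC), which is induced in activated lymphocytes and macrophages, and its 5p arm is the one that usually accumulates. The miR-142 hairpin is transcribed in nearly all cells of the blood lineage, and both of its arms are abundant there. Plasma contains miRNA in vesicles and in protein complexes shed by blood cells, vessel wall and organs. A lower plasma level can arise from fewer cells of a type or from less RNA given off per cell, which cannot be told apart in these data. The authors separated the plasma from blood cells by centrifugation, and whether any cells remained in it was not tested.

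The mature sequences are shown because each arm was counted separately and because they decide which reads could be confused. They were taken from RefSeq (GRCm38.p6), read 5′ to 3′, with the seed in capitals.

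mmu-miR-155-5p: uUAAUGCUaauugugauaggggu
mmu-miR-142a-3p: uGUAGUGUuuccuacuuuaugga
mmu-miR-142a-5p: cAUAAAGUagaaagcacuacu

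The 3 seeds differ from one another, and none of the 1679 mature names with a sequence shares a seed with any of them. The closest listed neighbor of mmu-miR-155-5p was miR-26b-5p and that of mmu-miR-142a-3p was miR-190a-5p, each at an edit distance of 8, and mmu-miR-142a-5p came within 4 edits of miR-3964. The mature strand of miR-155-5p lies at chr16:84714143-84714165 on the plus strand, inside an exon of the noncoding gene Mir155hg. Both arms of miR-142a lie on the plus strand of chromosome 11, miR-142a-5p at chr11:87756867-87756887 and miR-142a-3p at chr11:87756903-87756925, within the span of the noncoding gene Mir142hg but outside its annotated exon. The hairpins are shown next, with the mature strands of the 3 members in capitals.

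Mir155 hairpin: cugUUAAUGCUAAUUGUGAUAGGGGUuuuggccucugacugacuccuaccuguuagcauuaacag
Mir142 hairpin: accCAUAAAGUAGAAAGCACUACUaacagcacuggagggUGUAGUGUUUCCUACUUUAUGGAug

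The other arm of the miR-155 hairpin, miR-155-3p, had 3 reads in 1 library and 0 in the other 898. The miRNA miR-142b is annotated on the opposite strand of the miR-142 locus, where all 20 of its bases are the reverse complement of miR-142a-3p, and it had 0 reads in all 899 libraries. Reads of the locus were thus assigned to the 2 arms of miR-142a alone.

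Levels are given in CPM, read counts scaled to a common library size with TMM factors, and differences on the log2 scale with the standard error of the fit. Before irradiation the animals assigned to irradiation did not differ detectably from those assigned to sham treatment in any of the 3 miRNA, with differences between -0.19 ± 0.18 for miR-142a-3p in C3H and 0.18 ± 0.16 for miR-142a-5p in C57Bl/6. Neither strain had any call at this time among all 483 miRNA (0%). Spread within a group was wide from the start. In C3H mice before irradiation, miR-155-5p ran from 18.9 to 276 CPM in the 64 mice to be irradiated and from 26.4 to 191 CPM in the 32 sham mice.

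**Figure D1:**
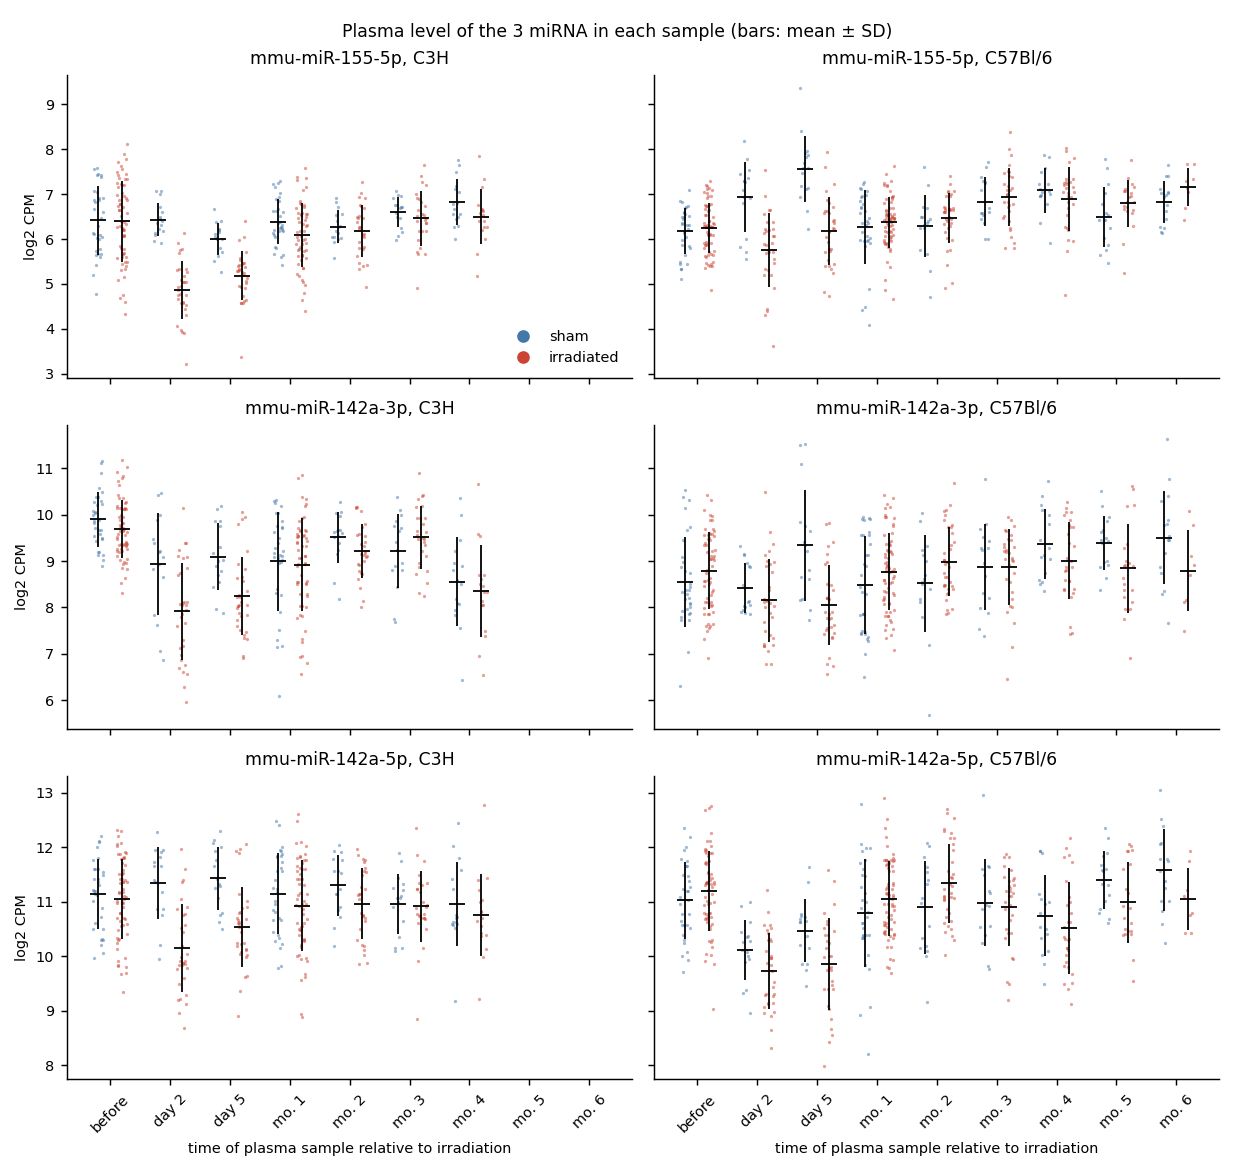
Plasma level of the 3 miRNA (log2 CPM) in each of the 899 samples against the time of sampling, in C3H mice on the left and C57Bl/6 mice on the right, with blue points for sham and red points for irradiated mice and bars for the mean and SD of a group. For miR-155-5p the irradiated group lies lower at days 2 and 5 in both strains. The groups are furthest apart relative to the spread for miR-155-5p in C3H mice at day 2. Irradiated and sham mice overlap at every time for all 3 miRNA.

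The first comparison asked how thoracic irradiation changed the plasma level within days. miR-155-5p was lower in irradiated mice at day 2 and day 5 in both strains, to between 0.351 and 0.577 of the sham level. Both arms of miR-142a were lower at day 2 in C3H mice, miR-142a-5p was also lower there at day 5, and miR-142a-3p was lower in C57Bl/6 mice at day 5. That last call was lost when the G3 females were left out. None of the 3 was higher in irradiated mice at any time by the test.

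In C3H mice at day 2, miR-155-5p stood at 8.08, 28.5 and 69.3 CPM (lowest, median and highest) in the 32 irradiated mice and at 58.8, 81.8 and 133 CPM in the 16 sham mice. The groups overlapped only at their edges, since 30 of the 32 irradiated mice lay below the lowest sham mouse and all 32 lay below the sham median. The difference was -1.51 ± 0.19 on the log2 scale (edgeR quasi-likelihood test, adjusted p = 6.27e-13), in a comparison where 4.97% of all tested miRNA were called.

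At day 5 in C3H mice the irradiated group held 9.11, 37.6 and 83.1 CPM and the sham group 37.4, 64.2 and 100.2 CPM. The overlap was larger than at day 2, with 16 of 32 irradiated mice below the lowest sham mouse and 30 below the sham median. miR-155-5p was lower by -0.79 ± 0.19 (adjusted p = 0.00357), where 3.11% of miRNA were called. The effect at day 5 was 0.72 ± 0.28 above that at day 2, which did not pass the test over all miRNA (adjusted p = 0.760, 0% called).

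In C57Bl/6 mice at day 2, miR-155-5p stood at 11.1, 57.4 and 184 CPM in irradiated and 46.2, 144 and 289 CPM in sham mice. Of the irradiated mice 11 lay below the lowest sham mouse and 31 below the sham median. The difference was -1.15 ± 0.19 (adjusted p = 2.77e-07), against 6.63% of miRNA called. At day 5 the values were 25.3, 72.3 and 243 CPM in irradiated and 74.0, 190 and 654 CPM in sham mice, with 17 irradiated mice below the lowest sham mouse. The difference of -1.41 ± 0.19 (adjusted p = 4.19e-11) fell among calls for 14.1% of all miRNA. Without the G3 females it was -0.88 ± 0.22 (adjusted p = 0.00355), and the calls over all miRNA dropped from 68 of 483 to 20 of 482.

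At day 2 in C3H mice the groups overlapped more for the arms of miR-142a than for miR-155-5p. In C3H mice at day 2, miR-142a-5p stood at 407, 962 and 4006 CPM in irradiated and 989, 2970 and 4950 CPM in sham mice, and 17 of 32 irradiated mice lay below the lowest sham mouse. It was lower by -1.10 ± 0.22 (adjusted p = 3.25e-05). The values for miR-142a-3p were 61.4, 255 and 1123 CPM against 115, 565 and 1418 CPM, with 6 irradiated mice below the lowest sham mouse, and it was lower by -0.99 ± 0.25 (adjusted p = 0.00521).

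At day 5 in C3H mice, miR-142a-5p stood at 479, 1513 and 4274 CPM in irradiated and 1438, 2643 and 5013 CPM in sham mice, and was lower by -0.81 ± 0.22 (adjusted p = 0.0116). miR-142a-3p stood at 119, 263 and 1056 CPM against 236, 518 and 1166 CPM. Its difference of -0.75 ± 0.25 missed the threshold (adjusted p = 0.0848) and passed it in 9 of 14 other ways of fitting the counts. Of the irradiated mice, 27 of 32 lay below the sham median for miR-142a-3p and 28 of 32 for miR-142a-5p.

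Neither arm passed the test in C57Bl/6 mice at day 2. miR-142a-3p held 109, 273 and 1436 CPM in irradiated and 230, 279 and 637 CPM in sham mice, the medians lying close together and the irradiated values spreading to both sides of the sham range. Its difference was -0.07 ± 0.26 (adjusted p = 0.915), with a 95% interval from -0.58 to 0.44. miR-142a-5p held 318, 882 and 2367 CPM against 495, 1166 and 2039 CPM, a difference of -0.32 ± 0.22 (adjusted p = 0.448).

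At day 5 in C57Bl/6 mice, miR-142a-3p held 93.2, 234 and 902 CPM in irradiated and 210.03, 622 and 2927 CPM in sham mice, a difference of -1.54 ± 0.25 (adjusted p = 7.92e-08). Without the G3 females the difference was -0.42 ± 0.28 (adjusted p = 0.467). miR-142a-5p held 253, 952 and 3075 CPM against 699, 1573 and 3170 CPM. It missed the threshold with all samples (-0.49 ± 0.22, adjusted p = 0.116) and without the G3 females (-0.42 ± 0.24, adjusted p = 0.363), and it passed in 4 of 14 other ways of fitting the counts. One of these had title set and sex as terms within each time point (-0.55, adjusted p = 0.0350).

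**Figure D2:**
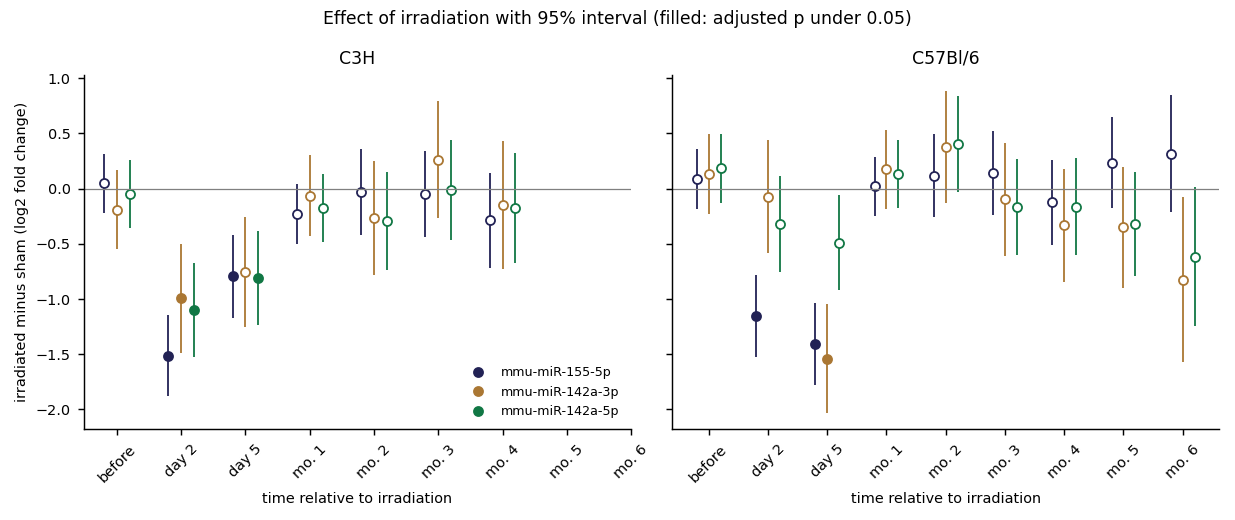
Difference between irradiated and sham mice (log2 fold change, with its 95% interval) for each miRNA against time, in C3H on the left and C57Bl/6 on the right, with filled points where the adjusted p was under 0.05. The 8 filled points all lie below 0 at day 2 or day 5, and the C57Bl/6 value of miR-142a-3p at day 5 includes the G3 females.

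At day 5 the C57Bl/6 females of set G3 decided the call of miR-142a-3p. The 4 sham mice had 2927, 2918, 2170 and 917 CPM of miR-142a-3p, while the 8 irradiated mice of the same set and sex lay between 93.2 and 292 CPM. For miR-155-5p the 4 sham mice had 654, 338, 242 and 97.5 CPM. The first 3 of these libraries held 613538, 424138 and 419427 reads, against 1406579 for the fourth. In the same 3 libraries miR-142a-3p exceeded miR-142a-5p, with log2 ratios of the 5p to the 3p arm of -0.77, -0.89 and -0.94, whereas the fourth had 1.79 and the 8 irradiated mice 2.38 or more. What set these libraries apart was not tested.

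Within the 2 title sets miR-155-5p was lower at each early time, to a different extent. At day 5 in C57Bl/6 mice its difference was -0.83 ± 0.24 in G1 (adjusted p = 0.0168, 6.83% of miRNA called). In G3, with the females included, it was -2.11 ± 0.24 (adjusted p = 1.07e-15, 19.9% called). At day 2 it was -1.28 ± 0.24 in G1 (8.9% called) and -0.94 ± 0.24 in G3 (adjusted p = 0.0123, 1.86% called). In C3H mice at day 2 it was -1.38 ± 0.24 in G2 (1.45% called) and -1.70 ± 0.24 in G4 (2.48% called). At day 5 in C3H it was -0.88 ± 0.24 in G2 (adjusted p = 0.0148, 2.69% called). In G4 it was -0.71 ± 0.24, which missed the threshold (adjusted p = 0.232, 0.828% called). Divided further by sex, all 4 combinations of set and sex had a lower mean in irradiated than in sham mice at both times in both strains. The difference of the set effects was not tested.

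The set values of the arms of miR-142a also varied. At day 5 in C3H mice miR-142a-5p was lower by -1.48 ± 0.29 in G2 and by -0.27 ± 0.29 in G4, where it was not called. miR-142a-3p followed with -1.37 ± 0.32 in G2 (adjusted p = 0.00159) and -0.38 ± 0.33 in G4. In C57Bl/6 mice at day 5 miR-142a-3p had -0.40 ± 0.33 in G1 (adjusted p = 0.493) and -2.17 ± 0.32 in G3 (adjusted p = 8.94e-10). There miR-142a-5p had -0.93 ± 0.29 in G1 (adjusted p = 0.0287) and -0.18 ± 0.30 in G3 (adjusted p = 0.758). Of all miRNA, 6.83% were called in G1 and 19.9% in G3. The G3 values include the 3 sham females with more reads of miR-142a-3p than of miR-142a-5p. Set and sex means of miR-142a-5p were lower in irradiated mice in 4 of 4 combinations at both times in C3H, and in 2 of 4 at day 2 and 3 of 4 at day 5 in C57Bl/6. Those of miR-142a-3p were lower in 3 of 4 at day 2 and in 4 of 4 at day 5 in both strains. Its differences of means in C3H at day 2 ran from -1.65 to 0.15. In C57Bl/6 at day 5 those of miR-142a-3p ran from -3.45 to -0.44, with a median of -0.64.

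**Figure D3:**
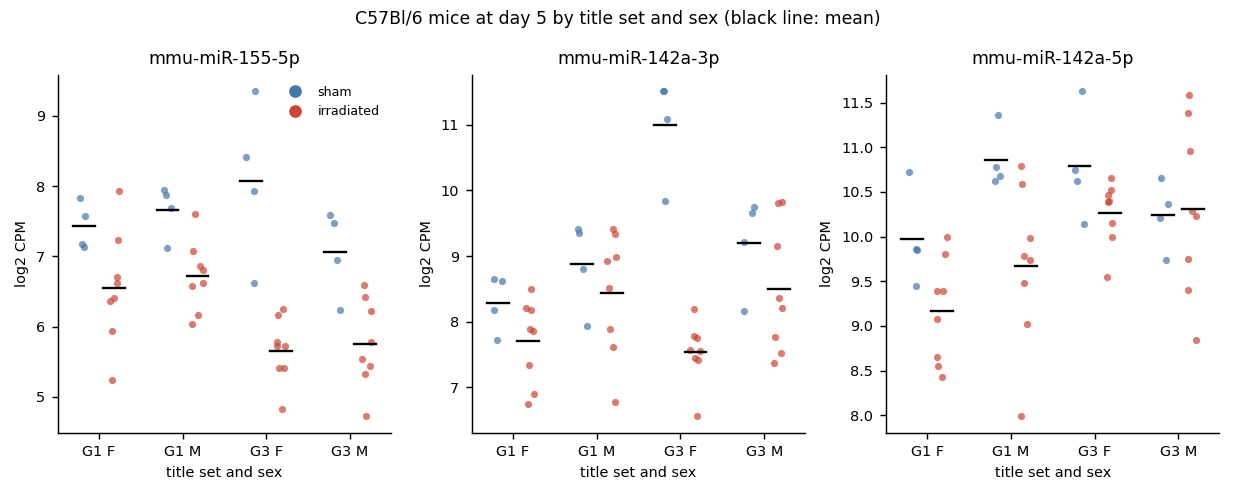
Level (log2 CPM) of each miRNA in the C57Bl/6 mice at day 5, divided by title set (G1, G3) and sex (F, M), with blue points for sham, red points for irradiated mice and black lines for means. For miR-142a-3p the groups are apart only in G3 females, where the 4 sham mice lie at 917 CPM or above and the irradiated mice at 292 CPM or below, while miR-155-5p has a lower mean in irradiated mice in all 4 combinations.

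The effect in females differed from that in males for miR-142a-3p in C57Bl/6 mice at day 5, by -2.19 ± 0.51 (female minus male, adjusted p = 0.00115, where 2.9% of miRNA were called). The effect was -2.62 ± 0.34 in females and -0.43 ± 0.35 in males. Without the G3 females the difference between the sexes was -0.15 ± 0.58 (adjusted p = 0.968). No other sex difference of the 3 miRNA was called at day 2 or day 5 in either strain. In C3H mice at day 2 miR-155-5p was lower by -1.61 ± 0.26 in females and by -1.40 ± 0.26 in males.

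Since the same animals had been bled before irradiation, each mouse could serve as its own reference. This was fitted with the mouse as a block, in limma-voom. The fit uses all samples of a mouse, so a fitted change can differ from the plain difference from the earlier sample. Medians and numbers of mice that fell come from the plain differences. In C3H mice at day 2, miR-155-5p fell below the animal's own earlier sample in 30 of 32 irradiated and 6 of 16 sham mice, with median changes of -1.40 and 0.25. Irradiated mice fell by 1.43 on the log2 scale (adjusted p = 2.96e-17, where 35.6% of miRNA were called in these mice), and the change of 0.10 in sham mice was not called (30.6% of miRNA called). The difference between the 2 changes was -1.53 (adjusted p = 8.73e-08), where 1.45% of miRNA were called.

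At day 5 in C3H mice it was lower than before in 29 of 32 irradiated and 11 of 16 sham mice. The changes were -1.31 in irradiated (35% of miRNA called) and -0.45 in sham mice (adjusted p = 0.0787, 19.9% called). Their difference was -0.86 (adjusted p = 0.0457, 1.04% called).

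The level in the sham animals of C57Bl/6 moved up. At day 2 the fitted change of miR-155-5p was 1.03 in sham mice (adjusted p = 4.78e-06, 21.7% of miRNA called). In irradiated mice it was -0.40 (adjusted p = 0.0331, 35.8% called). The plain differences averaged 0.62 in sham and -0.48 in irradiated mice. By these, miR-155-5p was lower than before in 4 of 16 sham and 21 of 32 irradiated mice. At day 5 it was above the earlier sample in all 16 sham mice, with a median change of 1.59 and a lowest of 0.31, and the fitted rise was 1.25 (adjusted p = 7.36e-09, 26.5% called). In the irradiated mice at day 5 the median change was 0.01, with 16 of 32 below their earlier value, and the fitted change of -0.17 was not called (adjusted p = 0.463, 26.1% called). Without the G3 females the sham change was 1.06 (adjusted p = 2.03e-05) and the irradiated change 0.12 (adjusted p = 0.638).

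The difference of the fitted changes in C57Bl/6 mice was -1.43 at day 2 (adjusted p = 2.15e-06, 5.38% of miRNA called) and -1.42 at day 5 (adjusted p = 1.69e-06, 6.42% called). Without the G3 females the latter was -0.93 (adjusted p = 0.0489). Whether the change in sham mice differed between the strains was not tested.

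The plain differences from the earlier sample were not the same in the 2 title sets of a strain. In C3H mice at day 5 the mean change of miR-155-5p was -2.17 ± 0.84 in G2 and -0.47 ± 0.65 in G4 in irradiated mice (SD, n = 16 each), and -1.08 ± 0.45 in G2 and 0.14 ± 0.70 in G4 in sham mice (SD, n = 8 each). All 8 sham mice of G2 were thus below their earlier value, against 3 of 8 in G4. In C57Bl/6 mice at day 5 the irradiated mice changed by 0.43 ± 0.67 in G1 and -0.59 ± 0.95 in G3, and the sham mice by 1.35 ± 0.34 in G1 and 1.66 ± 0.76 in G3. In each set at day 5 the irradiated mice had the lower mean change, while the sign of the change itself differed between sets in C3H sham and C57Bl/6 irradiated mice. The difference between sets was not tested.

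miR-142a-3p moved in sham C3H mice as well. It fell by 0.90 at day 2 (adjusted p = 0.00258) and by 0.82 at day 5 (adjusted p = 0.0113) in sham mice, against 1.62 and 1.49 in irradiated mice. The differences of the changes, -0.71 (adjusted p = 0.390) and -0.67 (adjusted p = 0.632), were not called. At day 2 the plain mean change in sham mice was -1.66 ± 1.28 in G2 and 0.16 ± 0.62 in G4 (SD, n = 8 each). At day 5 it was -1.48 ± 0.81 in G2 and -0.58 ± 0.87 in G4. miR-142a-5p in sham C3H mice did not change detectably as a whole (0.18 and 0.25), while it fell in irradiated mice by 0.87 and 0.56. The difference was called at day 2 (-1.05, adjusted p = 0.00793) but not at day 5 (-0.82, adjusted p = 0.159). At day 5 the 2 sets of sham mice moved in opposite directions, with plain mean changes of 0.92 ± 0.64 in G2 and -0.46 ± 0.60 in G4 (SD, n = 8 each). The difference between sets was not tested.

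miR-142a-5p fell in both groups of C57Bl/6 mice. At day 2 it was below the earlier sample in 32 of 32 irradiated and 13 of 16 sham mice, with falls of 1.46 and 0.79, and their difference of -0.67 was not called (adjusted p = 0.164). At day 5 the changes were -1.32 and -0.64, a difference of -0.68 (adjusted p = 0.152), or -0.64 without the G3 females (adjusted p = 0.380). miR-142a-3p at day 2 changed by -0.55 in irradiated and 0.09 in sham mice, a difference of -0.64 that was not called (adjusted p = 0.282). Its plain mean change in these sham mice was 0.82 ± 0.63 in G1 and -0.90 ± 0.66 in G3 (SD, n = 8 each). At day 5 miR-142a-3p changed by -0.88 in irradiated and 0.57 in sham mice. The difference of -1.45 (adjusted p = 0.00142) was -0.68 without the G3 females (adjusted p = 0.456).

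**Figure D4:**
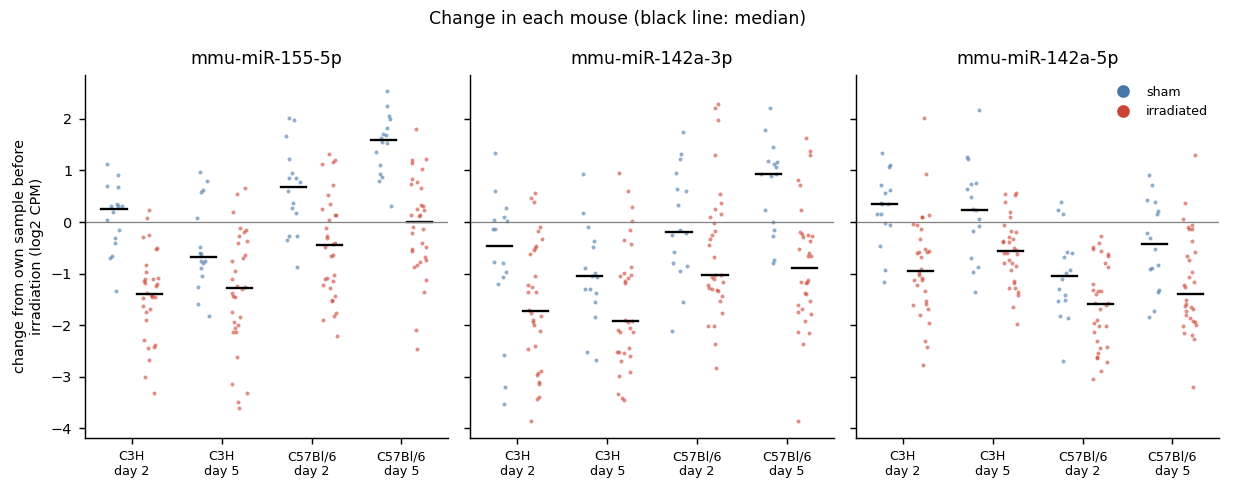
Change of each miRNA from the same mouse's sample before irradiation (log2 CPM) at day 2 and day 5 in both strains, 1 point per mouse, with blue for sham, red for irradiated mice and black lines for medians. For miR-155-5p the irradiated C3H mice lie mostly below 0 at both times, and all 16 sham C57Bl/6 mice lie above 0 at day 5.

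From month 1 on, none of the 3 miRNA differed between irradiated and sham mice by the test in either strain. In C3H mice the share of all miRNA called was 3.31% at month 1, 0.621% at month 2, 2.07% at month 3 and 0.414% at month 4. For C57Bl/6 it was 3.73% at month 1, 3.31% at month 2, 1.66% at month 3, 4.76% at month 4, 3.52% at month 5 and 0.414% at month 6. At month 1 miR-155-5p held a median of 65.5 CPM in 58 irradiated and 77.0 CPM in 32 sham C3H mice, a difference of -0.23 ± 0.14, and 85.3 CPM in 68 irradiated and 81.9 CPM in 32 sham C57Bl/6 mice, a difference of 0.02 ± 0.14.

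The change between times was itself tested. In C57Bl/6 mice the effect on miR-155-5p at month 1 was 1.43 ± 0.24 above that at day 5 (adjusted p = 9.85e-07, 10.1% of miRNA called), and 0.93 ± 0.26 above it without the G3 females (adjusted p = 0.0233). For miR-142a-3p the effect at month 1 was 1.72 ± 0.31 above that at day 5 (adjusted p = 6.11e-06) and 0.65 ± 0.33 without the G3 females (adjusted p = 0.328). Its change from day 2 to day 5 was -1.47 ± 0.37 (adjusted p = 0.00408, 6.63% called), and -0.35 ± 0.38 without them (adjusted p = 0.792). In C3H mice the effects at month 1 lay above those at day 5 by 0.57 ± 0.24 for miR-155-5p, 0.69 ± 0.32 for miR-142a-3p and 0.64 ± 0.27 for miR-142a-5p, none of which passed the test (adjusted p = 0.431, 0.432 and 0.431, 1.24% called).

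At month 6 in C57Bl/6 mice the members pointed in opposite directions without passing the test. miR-142a-3p ran at 180, 447 and 1079 CPM in the 8 irradiated and 202, 724 and 3172 CPM in the 16 sham mice. Its difference was -0.83 ± 0.38 (edgeR, adjusted p = 0.527), that of miR-142a-5p -0.62 ± 0.32 and that of miR-155-5p 0.32 ± 0.27.

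A second question of the design was whether the strains responded alike. The effect of irradiation over the 6 shared time points did not differ detectably between strains for miR-155-5p (F test, adjusted p = 0.656), miR-142a-3p (adjusted p = 0.233) or miR-142a-5p (adjusted p = 0.336), where 4.35% of miRNA were called. At single times the intervals were wide. At day 2 the effect in C57Bl/6 minus that in C3H was 0.36 for miR-155-5p (95% interval -0.18 to 0.90), 0.92 for miR-142a-3p (0.20 to 1.65, adjusted p = 0.473) and 0.78 for miR-142a-5p (0.16 to 1.40, adjusted p = 0.473). At day 5 it was -0.61 for miR-155-5p (-1.16 to -0.07, adjusted p = 0.298), and -0.10 without the G3 females (adjusted p = 0.994).

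Before irradiation the strains differed in miR-142a-3p, which was lower in C57Bl/6 by -0.97 ± 0.13 (adjusted p = 2.75e-12), and in miR-155-5p, lower by -0.31 ± 0.10 (adjusted p = 0.00395). The second call was lost under 4 of 12 other ways of fitting. miR-142a-5p differed by 0.03 ± 0.11. At this time 50.7% of all miRNA were called, and the title sets of a strain were also far apart. In C3H mice miR-155-5p averaged 7.10 ± 0.42 log2 CPM in G2 and 5.69 ± 0.52 in G4 (SD, n = 48 each), and in C57Bl/6 mice miR-142a-3p averaged 8.10 ± 0.60 in G1 and 9.33 ± 0.68 in G3 (SD, n = 48 each). Strain and title set cannot be told apart here, as each set holds 1 strain.

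The arms of miR-142a come from 1 hairpin, and their ratio within a library does not depend on how libraries are scaled. Ligation and counting can favor one arm, so the ratio is in reads and not in molecules. The log2 ratio of miR-142a-5p to miR-142a-3p reads ranged from -0.94 to 3.76 over the 899 samples, with a median of 2.07. It did not differ between irradiated and sham mice at any of the 14 time points by a permutation test adjusted over them. The lowest unadjusted p was that of C57Bl/6 mice at day 5, at 1.81 ± 0.68 in irradiated and 1.13 ± 1.17 in sham mice (SD, n = 32 and 16, p = 0.0157, adjusted p = 0.220), and without the G3 females the difference was -0.07 in place of 0.68.

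Before irradiation the ratio averaged 0.51 ± 0.53 in G2 and 2.12 ± 0.36 in G4 of the C3H mice, and 2.61 ± 0.51 in G1 and 2.23 ± 0.47 in G3 of the C57Bl/6 mice (SD, n = 48 each). The sets were not compared by a test. It lay below 0 in 13 of the 899 samples, of which 9 were C3H males of G2 before irradiation, 1 was a C3H female of G2 at month 3 and 3 were the C57Bl/6 sham females of G3 at day 5. The red blood cell index, the log2 ratio of miR-451a to miR-23a-3p reads that is used as a sign of hemolysis, was 1.74 ± 0.64 in G2 and -0.20 ± 0.81 in G4 (SD, n = 48 each) in C3H mice at the same time. Its part in the arm ratio was not tested.

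**Figure D5:**
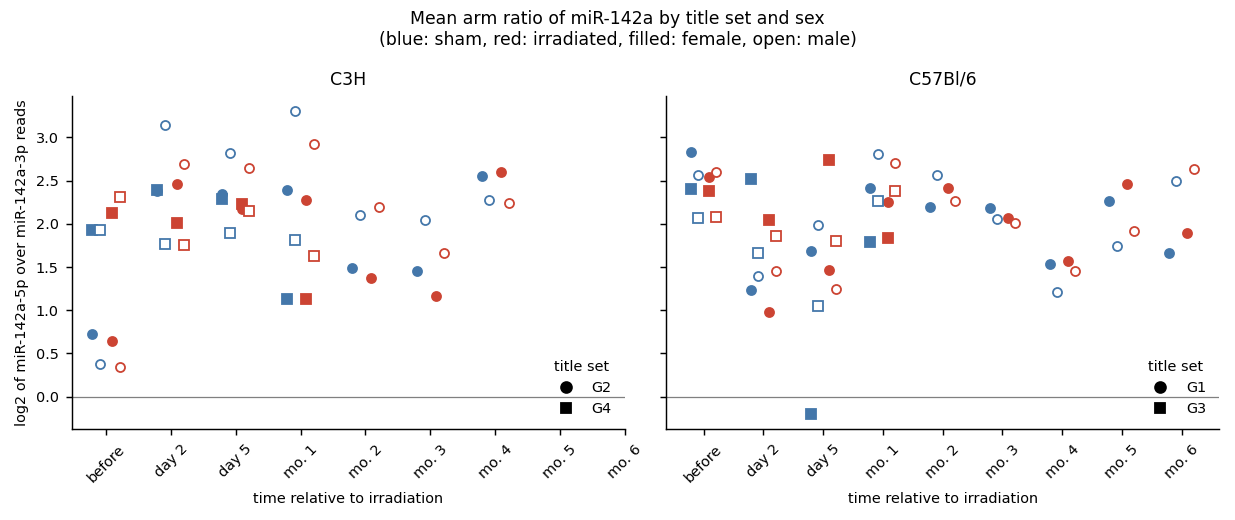
Mean log2 ratio of miR-142a-5p to miR-142a-3p reads in each combination of title set (circles or squares), sex (filled for female, open for male) and treatment (blue for sham, red for irradiated) against time, in C3H on the left and C57Bl/6 on the right. Set G2 lies lowest in C3H before irradiation, and the only mean below 0 is that of the C57Bl/6 sham females of G3 at day 5.

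The ratio of miR-155-5p to miR-142a-3p reads showed where the members changed unequally. In C57Bl/6 mice at day 2 its log2 value was -2.40 ± 0.86 in irradiated and -1.49 ± 0.83 in sham mice (SD, n = 32 and 16), a difference of -0.91 (permutation test, p = 0.00096, adjusted p = 0.0134 over the 14 time points). At month 5 it was higher in irradiated mice, -2.05 ± 0.94 against -2.92 ± 0.81 (SD, n = 21 and 16), by 0.87 (permutation test, p = 0.00544, adjusted p = 0.0381). At month 6 the difference was 1.05 (exact permutation test, n = 8 and 16, p = 0.0109, adjusted p = 0.0509). The direction at months 5 and 6 was opposite to that at day 2. In C3H mice no difference was called at any time, the one at day 2 being -0.58 (permutation test, p = 0.158, adjusted p = 0.442).

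Other leukocyte miRNA were examined beside the members from a list of 10, of which 7 could be tested. miR-150-5p, abundant in mature lymphocytes, was lower at day 2 and day 5 in both strains, by -1.70 ± 0.14 at day 2 and -1.29 ± 0.15 at day 5 in C3H and by -1.55 ± 0.15 at day 2 and -1.10 ± 0.15 at day 5 in C57Bl/6. Without the G3 females the last value was -1.41 ± 0.17 (adjusted p = 3.88e-14). At month 1 it was still lower in C3H (-0.62 ± 0.11, adjusted p = 8.16e-07), a time at which none of the 3 members was called, and at month 2 it was higher in C57Bl/6 (0.54 ± 0.15, adjusted p = 0.0165). miR-223-3p, typical of neutrophils and other myeloid cells, was lower in C57Bl/6 mice at day 5 (-1.12 ± 0.17, adjusted p = 1.37e-08), a call that was lost without the G3 females (-0.38 ± 0.19, adjusted p = 0.272). The other arm of its hairpin, miR-223-5p, had 0.04 ± 0.16 there (adjusted p = 0.922), and 0.15 ± 0.18 without the G3 females (adjusted p = 0.776). miR-146a-5p, a target of inflammatory signaling, was lower in C3H mice at day 2 (-0.45 ± 0.14, adjusted p = 0.0409).

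In counts, 2 of the 7 were lower at day 2 and 1 at day 5 in C3H, where 4.97% and 3.11% of all miRNA were called in either direction. In C57Bl/6, 1 was lower at day 2 and 2 at day 5, beside 6.63% and 14.1% of all, and none of the 7 was higher at these times. The median difference of the 7 was -0.37 at day 2 in C3H, where that of all 483 miRNA was -0.03, and -0.18 at day 2 in C57Bl/6, where that of all was -0.06. At day 5 it was -0.13 in C3H and -0.12 in C57Bl/6, beside medians of 0 and -0.0029 over all. The summed level of the list in C3H mice at day 2 ran from 7214 through a median of 11971 to 22615 RPM (as CPM, but scaled by library totals without TMM factors) in irradiated and from 11948 through 23148 to 52179 in sham mice. The part of leukocyte numbers in the levels of the members was not tested.

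Of 4 red blood cell miRNA, miR-144-3p (0.90 ± 0.25, adjusted p = 0.0190) and miR-144-5p (1.14 ± 0.28, adjusted p = 0.00411) were higher in irradiated C3H mice at day 5, and miR-144-5p was higher in C57Bl/6 mice at day 5 (1.52 ± 0.29, adjusted p = 7.66e-06). That difference was 0.87 ± 0.32 without the G3 females and was not called (adjusted p = 0.109). The most abundant of them, miR-451a, was not called at any time. The summed level of the 4 had a median of 47242 RPM in irradiated and 42327 in sham C3H mice at day 2, and 27838 and 28007 in C57Bl/6 mice at day 5. With the red blood cell index as a covariate none of the calls of the 3 members changed.

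Of the miRNA of platelets and vessel wall, miR-126a-5p was higher in irradiated C57Bl/6 mice at day 5 (0.69 ± 0.14, adjusted p = 1.86e-05) and month 2 (0.50 ± 0.13, adjusted p = 0.00818). Its day 5 call was lost without the G3 females (0.36 ± 0.16, adjusted p = 0.197). miR-126a-3p was not called at any time. The hepatocyte miRNA miR-122-5p was lower at day 2 in C3H (-1.06, adjusted p = 0.0213) and at day 2 and day 5 in C57Bl/6 (-1.69 and -1.74), the latter being -1.90 without the G3 females (adjusted p = 2.32e-05). It was higher in irradiated mice at month 1 in C3H (1.33 ± 0.24) and from month 2 to month 5 in C57Bl/6 (1.36 to 3.23), times at which none of the 3 members was called.

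The levels of the 3 members were set in order over the 32 groups of strain, treatment and time. For miR-155-5p the 3 lowest means were those of irradiated C3H mice at day 2 (4.86 ± 0.65 log2 CPM, SD, n = 32) and day 5 (5.18 ± 0.55) and of irradiated C57Bl/6 mice at day 2 (5.76 ± 0.82), and the highest was that of C57Bl/6 sham mice at day 5 (7.56 ± 0.73, n = 16). In 30 of the 31 steps between neighbors the gap was within 1 SD, and the largest gap was 0.58. The means of miR-142a-3p ran from 7.92 to 9.90 and those of miR-142a-5p from 9.73 to 11.6, and all 31 steps were within 1 SD in either arm. The irradiated groups of days 2 and 5 were the 4 lowest for miR-142a-3p, while for miR-142a-5p the sham C57Bl/6 groups of day 2 (10.1) and day 5 (10.5) ranked among them.

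As a description, the miRNA whose level varied most like each member was found among 252 other miRNA with a median of at least 10 reads. Correlations were taken over the 899 samples after the mean of each group was removed. These correlations share libraries, depth and title sets. miR-155-5p was most like let-7c-5p (r = 0.56), let-7b-5p (0.53) and miR-26b-5p (0.50), and its correlation was 0.19 with miR-142a-3p and -0.13 with miR-142a-5p. miR-142a-3p was most like miR-29b-3p (0.89), let-7a-5p (0.87) and miR-98-5p (0.85), ahead of its own sister arm at 0.72. miR-142a-5p was most like miR-322-5p (0.82), let-7d-5p (0.82) and let-7f-5p (0.80). Within set and sex the 2 arms correlated at 0.81, and miR-155-5p with miR-142a-5p at 0.01. There miR-142a-3p had 0.87 with miR-29b-3p, 0.86 with let-7a-5p and 0.81 with miR-98-5p, the last level with its sister arm. For miR-142a-5p the value was 0.83 with miR-322-5p and 0.81 with both let-7d-5p and let-7f-5p. Those of miR-155-5p fell to 0.36 with let-7c-5p, 0.33 with let-7b-5p and 0.27 with miR-26b-5p.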

How the data were processed

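Plasma miRNA of 899 samples from 196 mice was analysed, with strain, treatment, time, sex, mouse number and title set read from the sample titles and characteristics. The authors isolated RNA from plasma with a biofluid kit, prepared libraries with the QIAseq miRNA kit, trimmed the reads and aligned them with the Small RNA application of Illumina BaseSpace, against the build that the labels give as mm10. The deposited values are read counts per mature miRNA without normalization. The miRBase release and any use of molecular identifiers are not given in the sources used here, so error from counting refers to reads. Plasma over a limit of hemolysis had been left out by the authors.

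Counts were scaled by TMM (factors 0.372 to 1.59) and tested in R 4.3.3 with the quasi-likelihood test of edgeR 4.0.16. The 483 miRNA kept by filterByExpr held 99.99% of reads. All samples were fitted together, each of the 32 groups having its own mean (867 residual degrees of freedom), and p-values were adjusted by Benjamini-Hochberg within a contrast, called under 0.05. Log2 CPM used a prior count of 2, and the standard error was derived from the F statistic. Samples of the same mouse, taken at several times, had a mean correlation of 0.0820 over 99 abundant miRNA after removal of group means, against -0.0015 for different mice of a strain. Change from a mouse's own sample was fitted over all samples with limma-voom (limma 3.58.1) and the mouse as a fixed block (675 residual degrees of freedom). Ratios, with 0.5 read added to either count, were compared by two-sided permutation tests (100000 resamples, or exact where a group had under 10 samples). Positions and sequences came from GRCm38.

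Alternatives were other scalings (size factors of DESeq2 1.42.0, library totals, quantile normalization with limma), limma-voom, DESeq2, no filter on low counts, only the 2 groups compared, covariates (sex and title set, red blood cell index), the mouse as a replicate block, and fits without shallow libraries or without the 4 mice lacking an early sample. Models with the combinations of title set and sex at each time, and models without the C57Bl/6 females of G3 at day 5, were chosen after seeing the data. The procedure was tested on simulated data.

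The members and the marker lists were chosen with earlier results of these data known. Named beside the 3 members were the miRNA of the lists and the 3 miRNA most like each member in variation. Irradiated and sham mice were not compared in lung or heart, which were not analysed here.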

Additional observations from a re-analysis of the deposited data

Results flagged for a closer look

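The effect of irradiation differed between time points or sexes, by the edgeR test of the difference itself, in 4 cases, all of them in C57Bl/6 mice at day 5. For miR-142a-3p the effect at day 5 was lower than at day 2 by -1.47 (adjusted p = 0.00408), and at month 1 it was above that at day 5 by 1.72 (adjusted p = 6.11e-06). For the same miRNA the effect at day 5 differed between females and males by -2.19 (adjusted p = 0.00115). Without the 12 C57Bl/6 females of title set G3 at day 5 these 3 differences were -0.35, 0.65 and -0.15 and none was called. For miR-155-5p the effect at month 1 was above that at day 5 by 1.43 (adjusted p = 9.85e-07), and by 0.93 without those females (adjusted p = 0.0233). Day 2 and day 5 rest on different mice. In the 1 group small enough to look for a lone sample, the 8 irradiated C57Bl/6 mice at month 6, no library stood apart in any of the 5 values examined.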

How the results depend on the processing

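Over 17 settings and 88 results, 911 of 934 alternative values kept their side of the threshold (counts: stayed within 1.5 times), and 0 reversed a called direction, though differences that were not called could change sign. Most of these results were not called in the main fit, and one that stayed uncalled counts among the 911. The calls of miR-155-5p at days 2 and 5 held under all 14 alternatives in both strains, as did those of both arms of miR-142a at day 2 in C3H. Leaving out the C57Bl/6 females of title set G3 at day 5 reduced miR-142a-3p at that time to -0.42 and its called comparisons from 2 to 1. The difference of miR-142a-3p in C3H at day 5 passed the threshold with library totals (-0.88), limma-voom (-0.84), quantile normalization (-0.88), only the 2 groups compared (-0.77), sex and title set as covariates (-0.83), the mouse as a replicate block (-0.84), no libraries under 500000 reads (-0.79), title set and sex within each time point (-0.85) and DESeq2 (-0.73). That of miR-142a-5p in C57Bl/6 at day 5 passed with DESeq2 size factors (-0.57), quantile normalization (-0.69), title set and sex within each time point (-0.55) and DESeq2 (-0.57). The strain difference of miR-155-5p before irradiation was lost with library totals (-0.15), limma-voom (-0.13), quantile normalization (-0.17) and the mouse as a replicate block (-0.13), at adjusted p from 0.127 to 0.281. The strain difference of the effect on miR-142a-3p passed with DESeq2 size factors (adjusted p = 0.0493) and with no filter on low counts (adjusted p = 0.0317). In sham mice each of the 14 later time points was also compared with the one before irradiation. There 16.1% to 38.5% of all miRNA were called in the main fit. The number of these time points called went from 7 to 3 for miR-142a-3p with library totals, and from 3 to 1 for miR-142a-5p with quantile normalization. The cause of these shifts was not tested. The mouse as a replicate block (consensus correlation 0.0434) changed no call of the 3 miRNA other than the 2 named.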
